A study of Homo sapiens with 131 samples.

Results

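The mRNAs described here belong to the epidermal growth factor (EGF) signalling system: 4 ligands (EREG, AREG, TGFA and HBEGF), 3 receptors (EGFR, ERBB2 and ERBB3) and ERRFI1, an inhibitor of the receptors. These 8 genes, of 59412 named genes in the files, were taken by symbol wherever a file lists them. They were chosen by the editing of EREG with APOBEC1-DDX6 against unfused APOBEC1 and by their place in one signalling system. The values of that comparison, and those of EREG in every comparison with the same unfused APOBEC1 libraries, are therefore a description with no test.

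EGF family ligands are made as membrane-bound precursors, are released by sheddases, and bind ERBB receptors on the same or a neighbouring cell. EREG and AREG encode epiregulin and amphiregulin, TGFA encodes transforming growth factor alpha, and HBEGF encodes heparin-binding EGF-like growth factor. All 4 bind EGFR; ERBB2 has no known ligand and works as a partner, and ERBB3 has a weak kinase and signals through its partners. Colon cancer cells often make epiregulin and amphiregulin and signal to themselves through EGFR.

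The series marks mRNAs that come close to proteins of processing bodies (P-bodies), cytoplasmic granules that hold mRNAs that are little translated. Each protein was fused to an RNA editing enzyme: ADAR2dd, the deaminase domain of ADAR2, makes A-to-I edits (HyperTRIBE), and APOBEC1 makes C-to-U edits (STAMP). The deposited editing tables give, for each gene and library, the reads and the edited reads; the editing level is the percentage of a gene's reads that carry an edit. RNA was total RNA taken up in TRIzol and made into mRNA libraries.

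The groups were HCT116 human colon cancer cells or HEK293T human embryonic kidney cells, induced to express the construct unless called uninduced, each construct being named with the editor before or after its partner as fused. Induced HCT116 cells carried 10 ADAR2dd fusions (LSM14A, 4E-T, PATL1, DDX6 or EDC3 on either side of the editor, 2 libraries each), set against unfused ADAR2dd (2 libraries). They carried APOBEC1-DDX6 (3 libraries), 9 other replicated APOBEC1 fusions (2 libraries each) and 7 fusions with 1 library each, set against unfused APOBEC1 (3 libraries). Cells of both lines carried APOBEC1-DDX6 together with LSM14A-ADAR2dd, set against both unfused editors (2 libraries each). A second HCT116 set of this kind is titled "illumina". Its control is titled APOBEC1-ADAR2dd, where the other sets have APOBEC1_ADAR2dd-control. That control is taken here as both unfused editors, which its title does not state. HEK293T cells carried the rapamycin-recruited editors LSM14A-TRIBE-ID (0, 15, 30, 60 or 120 min) and DDX6-STAMP-ID (0, 15, 30 or 120 min), 2 libraries a time. Uninduced HCT116 lines (APOBEC1-DDX6, ADAR2dd-control, both unfused editors, APOBEC1-control) had RNA levels only, and translation efficiency is given for DDX6 knockout (KO) and wild-type (WT) cells of both lines. The labels name neither the inducer nor its promoter, do not say whether a line is 1 clone, and do not say that replicates were separate cultures, so p-values measure only the spread between these libraries, which may be technical.

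The 83 editing libraries held 6259071 to 13432692 reads. Library-wide, 4.93% of reads were edited with LSM14A-ADAR2dd and 1.32% with APOBEC1-DDX6, against 0.232% with unfused ADAR2dd and 0.313% with unfused APOBEC1. Reads of replicates differed beyond counting noise most in LSM14A-TRIBE-ID (chi-square per degree of freedom 5.84 to 7.20), PATL1-APOBEC1 (4.85), LSM14A-ADAR2dd (3.06) and EDC3-ADAR2dd (2.54). The HCT116 libraries with uninduced RNA levels held the epithelial markers EPCAM (377 to 432 TPM, a transcript abundance scaled for gene length and library size), KRT8 (1103 to 1691) and CDX2 (highest 19.9), 6 of 10 listed colon epithelial markers being above 1 TPM and CEACAM5, CEACAM6, LGALS4 and VIL1 being below 1. Of 5 markers of fibroblasts and blood cells only COL1A1 (11.3 to 22.1 TPM) was above 1 TPM. In the HEK293T editing files 5 of 6 listed HEK293T markers are present, summing to 1208 to 1424 RPM (reads scaled to library size). There 5 of the 10 colon epithelial markers are present too, summing to 135 to 288 RPM. HCT116 cells with both editors held 2 of the 6 HEK293T markers, summing to 307 to 363 RPM, and 6 of the 10 colon epithelial markers, summing to 2602 to 2805 RPM. CKB, a HEK293T marker, had 496 to 675 TPM in the uninduced HCT116 lines, so presence alone does not tell the lines apart. The sums of both lists in RPM did not overlap between the lines. EREG and AREG are not listed in the HEK293T editing files, TGFA and ERBB3 are not listed in the rapamycin files, and none of the 8 genes is listed in the poly(A) tail tables of 1094 genes (HCT116) and 678 genes (HEK293T). EREG and AREG are neighbours on chromosome 4 (GRCh38.p14 annotation, 4:74365145-74388749 and 4:74445136-74455005), and the other 6 genes each lie on a chromosome of their own.

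In A-to-I editing with LSM14A-ADAR2dd, all 8 mRNAs were edited above unfused ADAR2dd. LSM14A is an RNA-binding protein that P-bodies need to form. Tests used edgeR's quasi-likelihood fit over all genes that had 20 or more reads in each library and 10 or more edited reads in sum, with Benjamini-Hochberg adjustment, and 93.1% of the 8392 genes tested were called higher, so a call was the rule among all genes and not particular to these mRNAs. The median fitted log2 fold change was 5.17 over the 8 mRNAs and 4.13 over all genes; with EREG and AREG, which had 0 edited control reads, at their lower bounds, the median of the 8 ratios was 3.55.

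Among the ligands, EREG had 56 edited of 1218 reads (4.60%) and 85 of 1676 (5.07%) with LSM14A-ADAR2dd, against 0 of 2280 and 0 of 2076 with unfused ADAR2dd. The groups did not overlap, and the pooled level was at least 70.7-fold higher than the limit that 3 edited reads over both control libraries would set (0.0689%; adjusted p = 4.54e-10). AREG, its neighbour and a ligand of the same receptor, had 12 of 1688 (0.711%) and 13 of 2314 (0.562%), against 0 of 2256 and 0 of 2171, at least 9.22-fold higher (adjusted p = 7.85e-05). Its pooled level lay at the 11.3 percentile of all tested genes, and that of EREG at the 67.8 percentile. TGFA had 8.68% and 7.33% with the fusion, against 0.670% and 0.608% in the control, a 12.3-fold difference (95% counting interval 7.42 to 21.7; adjusted p = 4.31e-09), and its level was the highest of the 8 (8.01% ± 0.955, SD, n = 2; 90.1 percentile). HBEGF had 2.80% and 4.06%, against 0.160% and 0.666% (8.78-fold, 3.33 to 29.2; adjusted p = 0.000337), and its call was lost without LSM14A-ADAR2dd replicate 2 (adjusted p = 0.0527). No ligand's fusion libraries overlapped its control libraries. The share of all genes without such overlap was not counted, and 93.1% of the genes tested were called higher. Intervals and limits cover counting error only, since reads without molecular identifiers are not independent molecules.

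Among the receptors, ERBB2 had 59 edited of 1336 reads (4.42%) and 114 of 2211 (5.16%) with LSM14A-ADAR2dd, against 0 of 2638 and 1 of 2576 (0.0388%) with unfused ADAR2dd. With 1 edited read in the control, the ratio of 254 had a counting interval of 45.04 to 10102 (adjusted p = 1.25e-10). EGFR, the receptor that all 4 ligands bind, had 5.84% and 3.78%, against 0.947% and 0.775%, a 5.33-fold difference (3.18 to 9.36; adjusted p = 9.47e-06) and the smallest of the 6 ratios that had edited reads in the control. ERBB3 had 6.827% and 5.602%, against 0.403% and 0.694% (11.1-fold, 5.40 to 26.6; adjusted p = 5.61e-07). With the fusion the receptors averaged 4.81% ± 1.45 (EGFR), 4.79% ± 0.523 (ERBB2) and 6.21% ± 0.866 (ERBB3; SD, n = 2 each), while in the control EGFR averaged 0.861% ± 0.121, ERBB2 0.0194% ± 0.0274 and ERBB3 0.549% ± 0.206. ERRFI1, whose protein binds and blocks the kinase of EGFR, had 77 of 3663 (2.10%) and 78 of 5236 (1.49%), against 0 of 4670 and 1 of 4502 (0.0222%), a ratio of 160 (28.3 to 6350; adjusted p = 2.78e-09). No receptor or inhibitor library with the fusion overlapped the control, again where 93.1% of the genes tested were called higher.

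**Figure D1:**
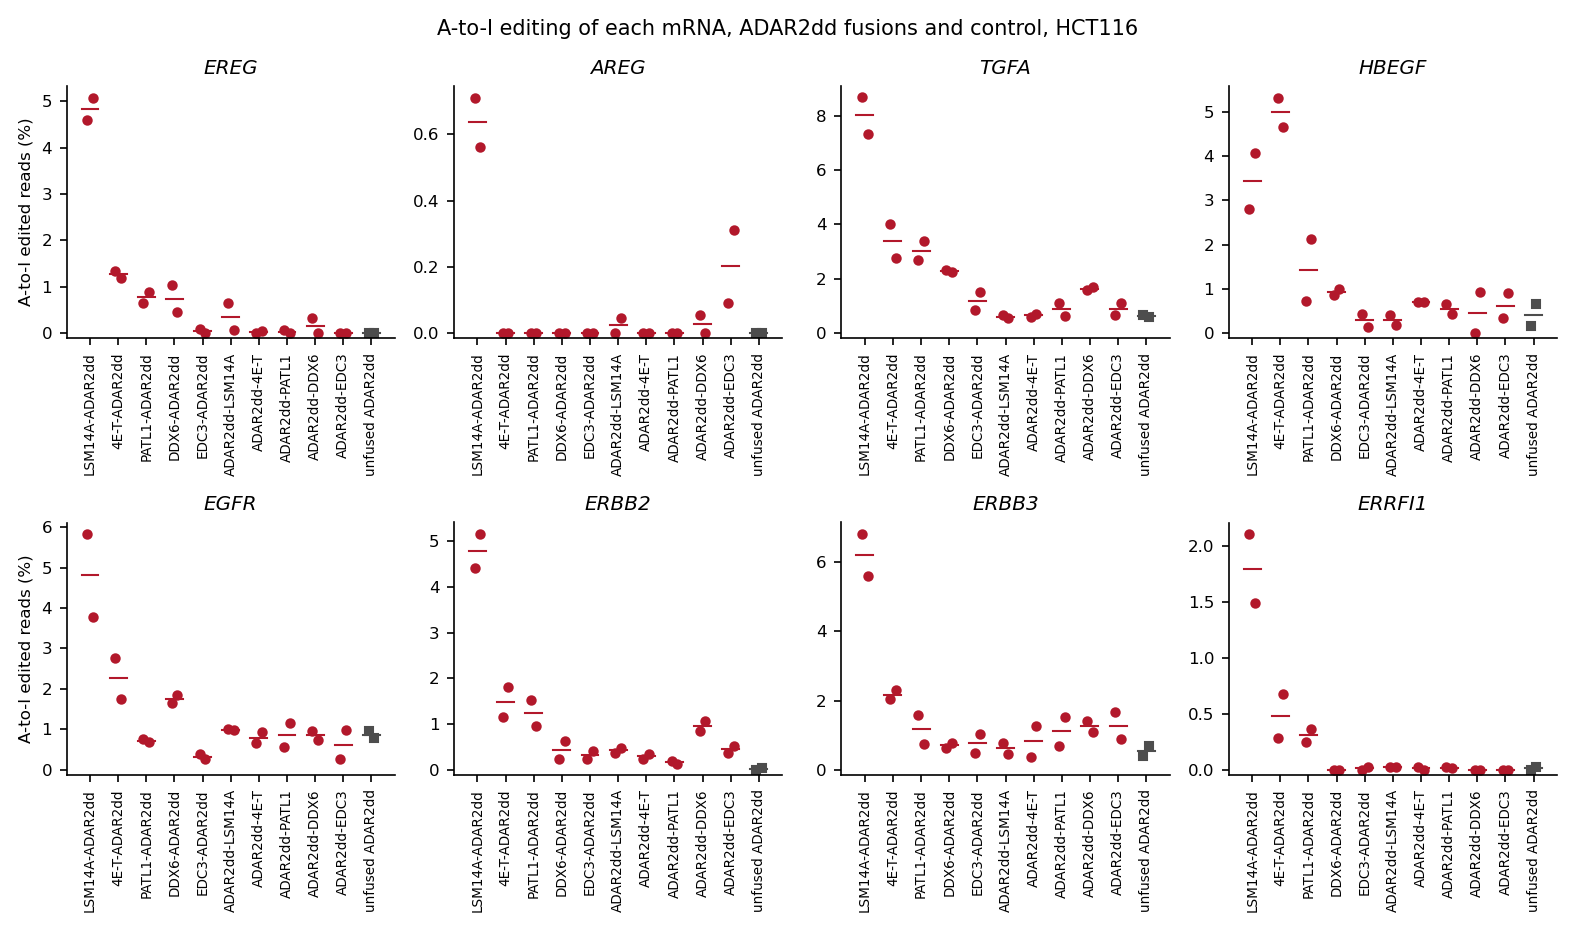
A-to-I edited reads (percentage of a gene's reads, linear axis that differs between panels) for each mRNA in HCT116 cells, with each ADAR2dd fusion (red circles, 1 per library, bar at the mean) and unfused ADAR2dd (grey squares). LSM14A-ADAR2dd stands highest for every mRNA but HBEGF, where 4E-T-ADAR2dd is higher (5.31% and 4.66%), and AREG is at 0 with 4E-T-, PATL1- and DDX6-ADAR2dd.

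The other partners placed before the editor edited fewer of the mRNAs. With 4E-T-ADAR2dd (4E-T binds the cap-binding protein eIF4E and keeps mRNAs from being translated) 7 of 7 tested mRNAs were called higher, beside 87.9% of all genes; AREG was the exception, with 0 edited of 2545 and 2632 reads, too few for the test. EREG had 1.34% and 1.19% with 4E-T-ADAR2dd, against 0 edited reads, at least 18.4-fold higher (adjusted p = 3.95e-14). HBEGF had 5.31% and 4.66%, against 0.160% and 0.666% (12.2-fold, 4.92 to 39.3), above its level with LSM14A-ADAR2dd (2.80% and 4.06%) although the whole 4E-T libraries carried fewer edits (2.41% of reads, against 4.93%); the difference between the 2 fusions was not tested. EGFR had 2.76% and 1.76%, against 0.947% and 0.775% (adjusted p = 0.00132), a call lost without 4E-T-ADAR2dd replicate 1 (adjusted p = 0.0975).

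With PATL1-ADAR2dd, a fusion to a decapping factor, 4 of 7 tested mRNAs were called, beside 60.3% of all genes. They were EREG (0.658% and 0.894%, at least 11.2-fold higher than the control at 0, adjusted p = 0.000121), TGFA (2.69% and 3.38%, adjusted p = 0.000153), ERBB2 (1.53% and 0.953%, adjusted p = 1.65e-05) and ERRFI1 (0.251% and 0.365%, adjusted p = 0.000443). HBEGF, EGFR and ERBB3 did not pass (adjusted p 0.0776, 0.672 and 0.181), and EGFR lay below its control in both libraries (0.748% and 0.685%, against 0.947% and 0.775%). With DDX6-ADAR2dd, a fusion to the RNA helicase of P-bodies, 3 of 6 were called, beside 49.2% of all genes. EREG had 1.03% and 0.461% (at least 10.99-fold higher, adjusted p = 0.000104), TGFA 2.31% and 2.27% against 0.670% and 0.608% (adjusted p = 0.000468), and ERBB2 0.223% and 0.638% against 0 and 0.0388% (adjusted p = 0.00125). AREG had 0 edited reads in all 4 libraries of PATL1-ADAR2dd and DDX6-ADAR2dd. ERRFI1 had 0 of 3232 and 0 of 3216 with DDX6-ADAR2dd.

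With the remaining 6 ADAR2dd fusions ERBB2 was the mRNA most often called. With ADAR2dd-DDX6 it had 16 of 1899 reads (0.843%) and 23 of 2147 (1.07%), against 0 and 0.0388% in the control (adjusted p = 9.25e-05), and TGFA had 1.60% and 1.68% against 0.670% and 0.608% (adjusted p = 0.0168), a call lost without either fusion library (adjusted p 0.0685 to 0.0859); these were 2 of 5 tested, beside 46.1% of all genes. With ADAR2dd-LSM14A, ERBB2 (0.372% and 0.480%, adjusted p = 0.00658) and EREG (0.643% and 0.0600%, adjusted p = 0.0333) were called, 2 of 5 beside 21.9%. This EREG call had 11 edited reads, 10 of them in 1 fusion library, against 0 in the control, so it reached the minimum of 10 only through the fusion libraries. It got no adjusted p from DESeq2 and was lost without either control library (adjusted p 0.0868 to 0.0881). ERBB2 alone was called with ADAR2dd-EDC3 (0.374% and 0.529%, adjusted p = 0.0134; 1 of 5 beside 12.3%) and EDC3-ADAR2dd (0.226% and 0.409%, adjusted p = 0.0444; 1 of 4 beside 4.98%), and both calls were lost without either control library (adjusted p 0.0871 to 0.103 and 0.109 to 0.154). With ADAR2dd-4E-T no mRNA of 5 was called by edgeR, beside 4.93% of all genes called in either direction, 1 had an unadjusted p under 0.05 (ERBB2, adjusted p = 0.0809), and DESeq2 called 0 and gave no adjusted p for ERBB2. With ADAR2dd-PATL1 edgeR and DESeq2 called 0 of 4, beside 1.59%, and 0 had an unadjusted p under 0.05. DESeq2 did not call ERBB2 with ADAR2dd-LSM14A, ADAR2dd-EDC3 or EDC3-ADAR2dd, nor TGFA with ADAR2dd-DDX6.

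Over the 10 ADAR2dd fusions ERBB2 was called in 8, EREG and TGFA in 5 each, ERRFI1 in 3, HBEGF, EGFR and ERBB3 in 2 each and AREG in 1, the only one in which it had enough edited reads for the test. These made 28 calls of 56 tests, all higher. In 21 of the 28 the control had under 10 edited reads, so the mRNA reached the minimum for the test only through the fusion libraries. The same held for 18 of 26 calls with both editors and 6 of 6 over the rapamycin times. These counts are a description and support nothing by themselves. The fusions share 1 pair of control libraries, so the calls of a gene are not independent of each other: a control at 0 or 1 edited read, as for EREG, AREG, ERBB2 and ERRFI1, enters each of its comparisons. AREG with ADAR2dd-EDC3 (2 of 2196 reads, 0.0911%, and 7 of 2244, 0.312%) was at least 2.99-fold above the limit of its control and had too few edited reads for the test.

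Editing was also set against the editing of the whole library, by a second fit whose offset carries each library's edited share, since that share was 21.2-fold higher with LSM14A-ADAR2dd, 10.4-fold with 4E-T-ADAR2dd, 4.57-fold with PATL1-ADAR2dd and 3.90-fold with DDX6-ADAR2dd than in the control. Of the same 56 tests, 8 were then higher and 4 lower. EREG was higher relative to the library with LSM14A- (adjusted p = 0.00627), 4E-T- (0.0185), PATL1- (0.0291) and DDX6-ADAR2dd (0.0269), where 12.6%, 14.7%, 12.6% and 9.64% of all genes were higher. ERBB2 was higher with LSM14A- (0.0122), 4E-T- (0.0398) and PATL1-ADAR2dd (0.0192) and with ADAR2dd-DDX6 (0.0176), where 7.92% of all genes were higher. With so few edited reads in the shared control libraries, EREG and ERBB2 reached the minimum for the test only through the fusion libraries. These 8 calls are therefore a description and support nothing by themselves.

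EGFR moved the other way. It was lower relative to the library with LSM14A-ADAR2dd (log2 -1.97, adjusted p = 0.00549), 4E-T-ADAR2dd (-1.98, 0.000541), PATL1-ADAR2dd (-2.43, 0.00744) and ADAR2dd-DDX6 (-1.80, 0.0336), where 10.8%, 10.9%, 8.0% and 3.90% of all genes were lower. In the LSM14A-ADAR2dd comparison the ratio of EGFR was 0.252 of the library's own, that of TGFA 0.581, ERBB3 0.526 and HBEGF 0.414, while ERBB2 stood at 12.0 and ERRFI1 at 7.54 times it. All 12 relative calls were sensitive to single libraries. The 4 EREG calls were lost without any 1 of the 4 libraries compared, except with DDX6-ADAR2dd, where fusion replicate 1 could be left out (adjusted p 0.0505 to 0.234 over the 4 fusions). The 4 ERBB2 calls were lost without control replicate 1 or either fusion library (0.0580 to 0.282), and DESeq2 made none of them, nor the EREG call with PATL1-ADAR2dd or the EGFR call with ADAR2dd-DDX6. It gave no adjusted p for EREG with DDX6-ADAR2dd. The EGFR calls were lost without either fusion library, and with LSM14A-ADAR2dd and ADAR2dd-DDX6 also without control replicate 1 (0.103 to 0.230).

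APOBEC1-DDX6 is the comparison that chose EREG, and its values follow with no test; 52.0% of all genes were called higher there. EREG had 19 of 479 reads (3.97%), 14 of 442 (3.17%) and 21 of 393 (5.34%) C-to-U edited with APOBEC1-DDX6, against 0 of 4235, 0 of 4029 and 0 of 4007 with unfused APOBEC1, at least 168-fold higher. AREG had 0 of 1275, 0 of 1087 and 2 of 1014 (0.197%), against 0 of 3176, 0 of 3095 and 0 of 2989, and its groups overlapped. TGFA had 2.19%, 1.43% and 1.94%, against 0.516%, 0.184% and 0.274%, a 5.69-fold ratio (3.03 to 11.8), with the groups apart. HBEGF overlapped its control (0.930%, 1.34% and 0.698%, against 1.22%, 0.893% and 0.311%).

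Of the receptors, EGFR stood above its control (1.90%, 4.63% and 2.17%, against 1.61%, 0.919% and 0.830%; 2.57-fold). ERBB2 stood below its control (0, 0.112% and 0.0788%, against 0.370%, 0.124% and 0.387%; ratio 0.208, 0.0588 to 0.612), and ERBB3 overlapped it (1.41%, 2.16% and 2.72%, against 0.159%, 1.11% and 1.97%). ERRFI1 had 0.874%, 0.981% and 0.785%, against 0.123%, 0 and 0.118%, a 10.9-fold ratio (6.36 to 19.4). The library-wide share was 4.20-fold higher in the same comparison. RNA levels differed as well, and their part in the scores was not tested. EREG had 38.4, 40.9 and 39.1 RPM, against 432, 414 and 426, and AREG 102, 101 and 101 against 324, 318 and 318. EGFR had 54.8, 58.1 and 59.5 RPM against 139, 145 and 141, and ERRFI1 192, 189 and 190 against 827, 784 and 814. The mean level was 1.25 times the control's for TGFA, 1.69 for HBEGF, 1.49 for ERBB2 and 1.02 for ERBB3. In bulk RNA a lower level from fewer cells of a type and less RNA per cell cannot be told apart.

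**Figure D2:**
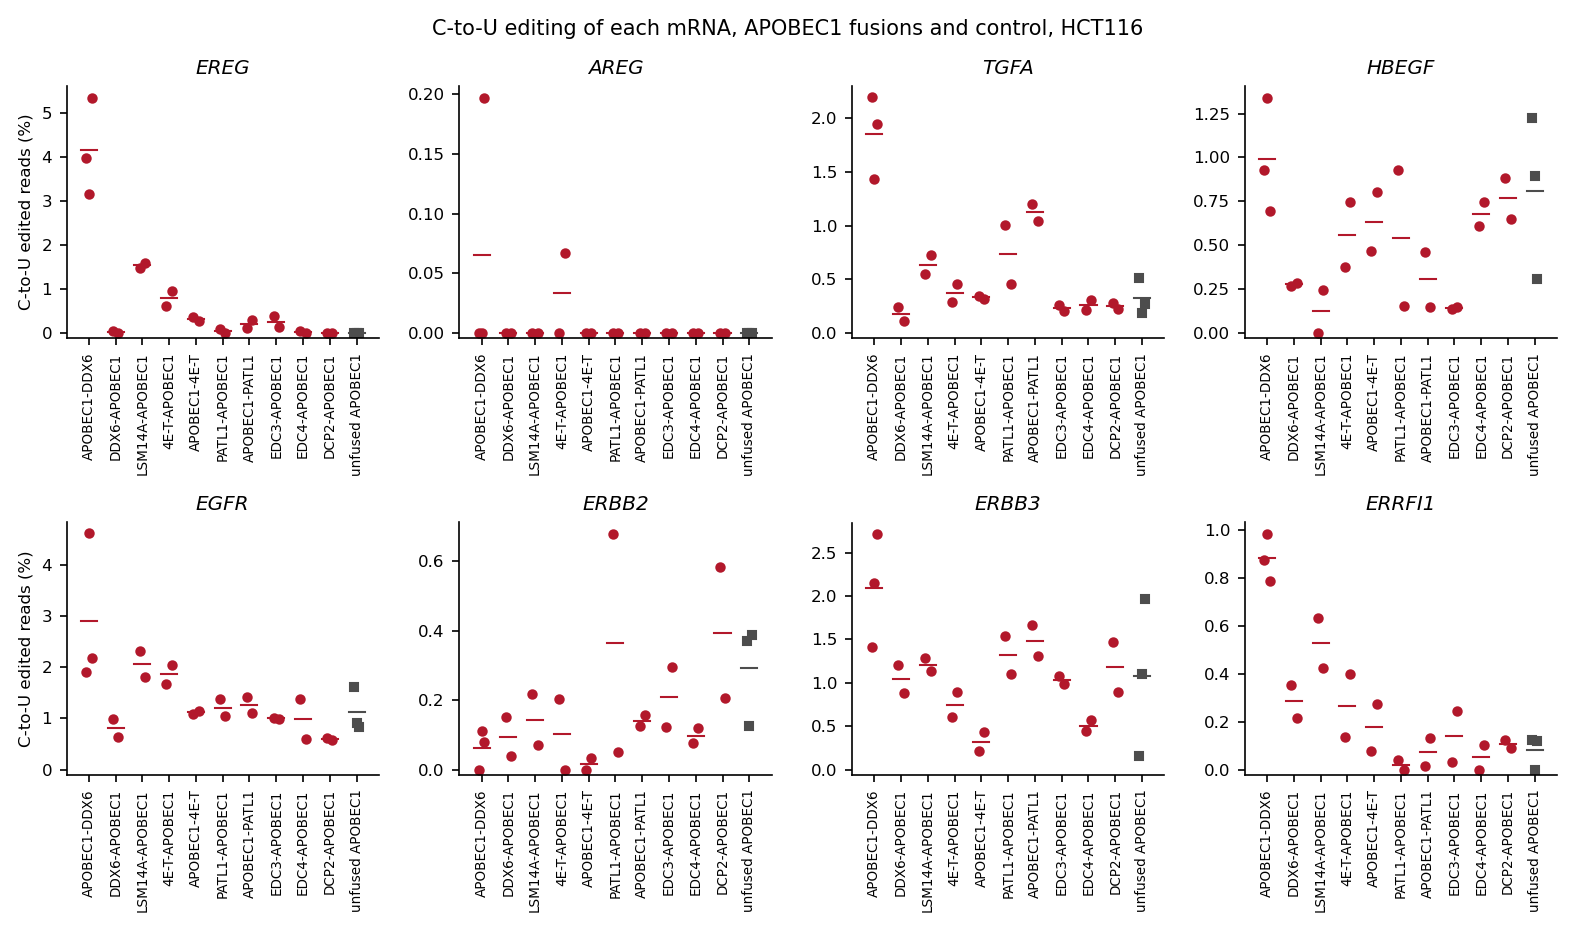
C-to-U edited reads (percentage of a gene's reads, linear axis that differs between panels) for each mRNA in HCT116 cells, with each replicated APOBEC1 fusion (red circles, 1 per library, bar at the mean) and unfused APOBEC1 (grey squares). EREG is highest with APOBEC1-DDX6 (3.97%, 3.17% and 5.34%) and at 0 in the 3 control libraries, and ERBB2 with APOBEC1-DDX6 (0 to 0.112%) lies below its control (0.124% to 0.387%).

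With the 9 other replicated APOBEC1 fusions few of the mRNAs were called. EREG, given as values, had 1.48% and 1.60% with LSM14A-APOBEC1 (at least 63.0-fold above the control's limit, its RNA at 0.299 of the control's level), 0.617% and 0.967% with 4E-T-APOBEC1 (at least 32.6-fold), 0.376% and 0.284% with APOBEC1-4E-T (at least 13.5-fold), 0.395% and 0.131% with EDC3-APOBEC1 (at least 10.8-fold) and 0.106% and 0.291% with APOBEC1-PATL1 (at least 8.13-fold). With DDX6-, PATL1-, EDC4- and DCP2-APOBEC1 it was edited in 1 of the 2 libraries of each, at 0.0386%, 0.0958%, 0.0503% and 0.0135%. DDX6 placed before the editor gave EREG 0.0386% and 0, where 0.365% of all reads were edited library-wide. Placed after the editor, it gave EREG 3.97%, 3.17% and 5.34%, where 1.32% of all reads were edited library-wide. The difference between the fusions was not tested.

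Over the other 7 mRNAs, 54 tests with these fusions gave 2 higher and 1 lower. TGFA was higher with APOBEC1-PATL1 (20 of 1661 reads, 1.20%, and 17 of 1635, 1.04%, against 0.516%, 0.184% and 0.274%; 3.41-fold, adjusted p = 0.0134, beside 23.4% of all genes higher), and was lost without control replicate 2 or fusion replicate 1 (adjusted p 0.0632 to 0.0782). ERRFI1 was higher with LSM14A-APOBEC1 (0.633% and 0.422%, against 0.123%, 0 and 0.118%; 6.48-fold, adjusted p = 0.00119, beside 27.9%), with its RNA at 0.281 of the control's level, and was lost without fusion replicate 1 (adjusted p = 0.1103) and with DESeq2. ERBB2 was lower with APOBEC1-4E-T (0 of 2852 and 1 of 3002, 0.0333%, against 0.370%, 0.124% and 0.387%; ratio 0.0583, 0.00138 to 0.383, adjusted p = 0.0262, beside 3.86% of all genes lower), and was lost without control replicate 2 or either fusion library (adjusted p 0.0505 to 0.158). This ERBB2 call was also lost with the replicate number as a block (adjusted p = 0.121).

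Relative to the library, none of the 54 tests was higher and 4 were lower. ERBB2 was lower with LSM14A-APOBEC1 (log2 -2.09, adjusted p = 0.0374), APOBEC1-4E-T (-3.96, 0.0194) and APOBEC1-PATL1 (-2.10, 0.0425), and HBEGF with LSM14A-APOBEC1 (-3.55, 0.0262), beside 8.92%, 6.5% and 9.57% of all genes lower in those fusions. The ERBB2 calls were lost without either fusion library, and with LSM14A-APOBEC1 and APOBEC1-PATL1 also without control replicate 1 or 3 (adjusted p 0.0715 to 0.209), and the HBEGF call without fusion replicate 1 (0.128). DESeq2 did not make the 2 calls with LSM14A-APOBEC1 or that of ERBB2 with APOBEC1-PATL1, and gave no adjusted p for ERBB2 with APOBEC1-4E-T. No mRNA was called by edgeR or DESeq2 with DDX6-, 4E-T-, PATL1-, EDC3-, EDC4- or DCP2-APOBEC1; an unadjusted p under 0.05 was reached by 1 mRNA with each of DDX6-, 4E-T-, EDC3- and DCP2-APOBEC1 and by 0 with PATL1- and EDC4-APOBEC1. In the order of that list, edgeR called 2.73%, 20.8%, 0.791%, 1.70%, 2.85% and 7.96% of all genes in either direction. These are the fits without a block. With the replicate number as a block, edgeR called ERRFI1 higher with 4E-T-APOBEC1 (adjusted p = 0.0127).

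The 7 fusions with 1 library each have no replicate check, and ratios past 2-fold are given as a description. With APOBEC-EDC3, EREG had 38 of 2985 reads edited (1.27%, at least 52.1-fold above the control's limit) and TGFA 24 of 718 (3.34%; 10.2-fold, 4.79 to 23.0), where 41.8% of all genes were past 2-fold higher and 2.04% lower. With APOBEC-DCP2, EREG had 5 of only 215 reads (2.33%), and TGFA (1.08%), HBEGF (1.44%) and ERBB2 (0.616%) were past 2-fold higher and EGFR (0.533%) past it lower, beside 37.6% higher and 2.80% lower of all genes. With APOBEC1-EDC4, HBEGF had 8 of 247 (3.24%; 3.99-fold), ERRFI1 0.286% and EGFR 0.557% (lower), beside 27.5% higher and 5.27% lower, while EREG had 0 of 74 reads edited (11.8 RPM, against 452, 434 and 447 RPM with unfused APOBEC1 in the same table). ERBB3 was past 2-fold lower with APOBEC1-LSM14A (0.149%, beside 12.1% of all genes lower and 13.7% higher), and ERBB2 with APOBEC1-CNOT10 (0 of 3122, beside 34.2% lower and 6.77% higher) and CNOT10-APOBEC1 (3 of 3116, beside 37.6% lower and 6.97% higher). No tested mRNA of the 8 was past 2-fold with CNOT1-R-APOBEC1, where 5.76% of all genes were higher and 16.3% lower.

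In cells that carried both fusions, the A-to-I and C-to-U editing of an mRNA was read from the same libraries, against libraries of both unfused editors that no comparison above used. In HCT116 cells, A-to-I editing was higher for 8 of 8 mRNAs, beside 94.8% of all genes. EREG had 88 of 1253 (7.02%) and 82 of 1251 (6.55%) with the fused editors, against 4 of 1794 (0.223%) and 0 of 2070 with the unfused editors (65.6-fold, 25.1 to 243; adjusted p = 2.98e-20). ERRFI1 had 107 of 2797 (3.83%) and 105 of 2770 (3.79%), against 0 of 2664 and 0 of 2938, at least 71.1-fold higher. AREG had 0.728% and 0.982% against 0 and 0 (at least 13.3-fold), TGFA 5.31% and 7.45% against 0.765% and 0.401% (11.2-fold), and HBEGF 3.30% and 3.36% against 0.244% and 0.469% (9.27-fold). The receptors were 7.76-fold (EGFR, 4.81% and 6.03% against 0.776% and 0.630%), 36.9-fold (ERBB2, 4.00% and 3.799% against 0.0459% and 0.157%) and 9.53-fold higher (ERBB3, 5.06% and 4.54% against 0.407% and 0.587%). The order of the ligands by level, with AREG lowest, was as with LSM14A-ADAR2dd except that EREG and TGFA overlapped.

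C-to-U editing in those libraries was higher for 4 of 7 tested mRNAs, beside 50.6% of all genes; DESeq2 called 2, EREG and TGFA. EREG had 18 of 1253 (1.44%) and 41 of 1251 (3.28%), against 0 of 1794 and 0 of 2070, at least 30.3-fold higher (adjusted p = 1.92e-06). With 0 edited control reads, EREG reached the minimum for the test only through the fused libraries. It had also been chosen by the same fusion and kind of editing in other HCT116 libraries, so this call is a description. TGFA had 1.29% and 1.30% against 0.229% and 0 (12.1-fold, adjusted p = 0.00038), and ERRFI1 1.00% and 1.16% against 0.263% and 0 (8.63-fold, adjusted p = 0.000277). ERBB3 had 1.72% and 1.78% against 0.678% and 0.704% (2.53-fold, adjusted p = 0.0273), and was lost without any 1 of the 4 libraries (adjusted p 0.0692 to 0.108). EGFR did not pass (2.00% and 1.74%, against 1.16% and 1.05%; adjusted p = 0.126), and HBEGF (0 and 1.32%, against 0.244% and 0) and ERBB2 (0.337% and 0.0767%, against 0.321% and 0.0391%) overlapped their controls. AREG had 9 of 2545 reads (0.354%) in 1 fused library and 0 in the other 3.

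In the set titled "illumina", EREG had 0 A-to-I edited of 33 and 0 of 21 reads with the fused editors, against 1 of 1643 and 0 of 1568 with the unfused editors, too few edited reads for the test. A count of 0 of 54 reads allows a level of up to 5.56%. A-to-I editing was higher for 6 of 6 tested mRNAs, beside 92.2% of all genes. HBEGF (2.37% and 2.86%, against 0.648% and 0) was lost without either fused library (adjusted p 0.101 to 0.132), and EGFR (4.30% and 1.03%, against 1.02% and 0.588%; adjusted p = 0.00698) without fused replicate 1 (0.652). TGFA (6.43% and 8.23%, against 0.648% and 0.765%), ERBB2 (4.99% and 4.78%, against 0.0438% and 0.277%), ERBB3 (5.17% and 7.22%, against 0.405% and 1.24%) and ERRFI1 (3.19% and 3.03%, against 0 and 0.0385%) were called with any 1 library left out as well. C-to-U editing was higher for 3 of 5, beside 49.0% of all genes; DESeq2 called 1, ERRFI1. They were ERRFI1 (0.431% and 1.06%, against 0.196% and 0.0770%; adjusted p = 0.00577), TGFA (1.04% and 0.548%, against 0.216% and 0.0765%; 0.0159) and EGFR (2.15% and 2.06%, against 1.09% and 0.367%; 0.0286). Each was lost without either fused library, and EGFR also without unfused replicate 2 (adjusted p 0.0586 to 0.280).

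In HEK293T cells, where EREG and AREG are not listed, A-to-I editing was higher for 3 of 4 tested mRNAs, beside 94.5% of all genes. EGFR had 5.16% and 3.96% against 0.690% and 0.332%, ERBB2 5.63% and 4.87% against 0.518% and 0.900%, and ERRFI1 8.92% and 6.12% against 0 and 0.943%, the last lost without fused replicate 1 (adjusted p = 0.0513). ERBB3 did not pass (3.07% and 2.45%, against 0 and 1.10%; adjusted p = 0.111). C-to-U editing was higher for 2 of 3, beside 67.6% of all genes: EGFR (2.58% and 3.08%, against 0.345% and 0; adjusted p = 0.00158, lost without fused replicate 2 at 0.0561) and ERRFI1 (5.51% and 3.79%, against 0.316% and 2.20%; 0.00997, lost with DESeq2 and without unfused replicate 1 or either fused library at 0.0973 to 0.235). ERBB2 overlapped its control (0.574% and 1.67%, against 1.04% and 1.03%). The difference between the lines (HEK293T minus HCT116) was called by edgeR for 0 of 6 mRNAs in either kind of editing, beside 3.05% and 6.22% of all genes. For A-to-I an unadjusted p under 0.05 was reached by 2, ERBB2 (log2 -2.23, adjusted p = 0.129) and ERRFI1 (adjusted p = 0.101), and DESeq2 called 1, ERRFI1, which edgeR also called without HEK293T unfused replicate 1 (0.0439). For C-to-U it was reached by 1, EGFR (log2 3.18, adjusted p = 0.1005), and DESeq2 called 0.

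**Figure D3:**
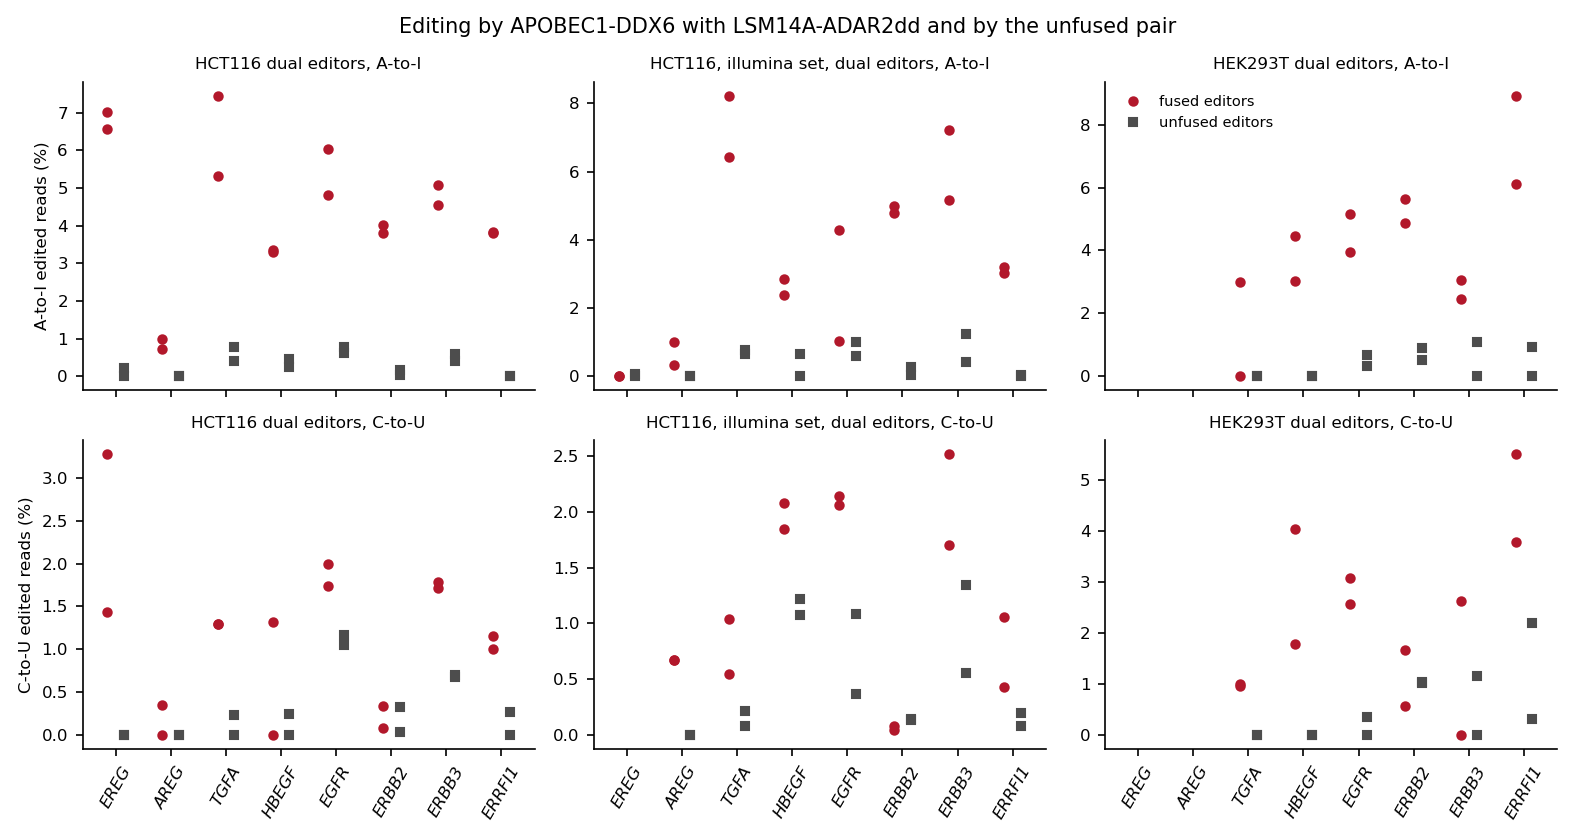
Percentage of reads edited for each mRNA (columns) with APOBEC1-DDX6 and LSM14A-ADAR2dd together (red circles, left, 1 per library) and with both unfused editors (grey squares, right), A-to-I above and C-to-U below. In HCT116 cells EREG reaches 7.02% and 6.55% A-to-I and 1.44% and 3.28% C-to-U, while ERBB2, at 4.00% and 3.799% A-to-I, overlaps its control in C-to-U.

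Relative to the library, 3 of the 33 tests with both editors were higher and 4 lower. ERRFI1 was higher for A-to-I in HCT116 cells (adjusted p = 0.00302, beside 11.8% of all genes higher) and in the "illumina" set (log2 3.21, 0.0241, beside 11.1%), and EREG for C-to-U in HCT116 cells (0.0106, beside 11.2%). All 3 reached the minimum for the test only through the fused libraries. EGFR was lower for A-to-I in HCT116 cells (log2 -1.20, 0.0467, beside 10.2% lower) and in the "illumina" set (-2.30, 0.0102, beside 11.7%) and for C-to-U in HCT116 cells (-1.42, 0.0204, beside 13.2%), and ERBB2 for C-to-U in HEK293T cells (-2.05, 0.0304, beside 4.85%). Each of these calls was lost without either fused library (adjusted p 0.109 to 0.288), the ERRFI1 call in the "illumina" set also without unfused replicate 1, and the EGFR A-to-I call in HCT116 cells without any 1 of its 4 libraries. DESeq2 did not make the ERRFI1 call in the "illumina" set or the ERBB2 call in HEK293T cells. EGFR was lower relative to the library in 4 ADAR2dd comparisons, which share their control libraries, and in 3 with both editors, whose controls are other libraries. Of those 3, the A-to-I and C-to-U calls in HCT116 cells come from the same libraries. It was not called for C-to-U in the "illumina" set or in HEK293T cells. In HEK293T cells its ratio was 0.665 of the library's own for A-to-I and 3.77 times it for C-to-U.

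When LSM14A-TRIBE-ID was recruited with rapamycin in HEK293T cells, A-to-I editing of ERBB2 and ERRFI1 went up with time. ERBB2 had 0.380% and 0.502% at 0 min, 1.51% and 1.12% at 15 min, 2.72% and 2.65% at 30 min, 6.56% and 5.01% at 60 min and 10.1% and 9.59% at 120 min. Both libraries of each later time lay above both at 0 min, and the tests gave adjusted p = 0.0864 at 15 min (edgeR 0 of 1 tested, beside 16.9% of all genes in either direction; unadjusted p under 0.05 for 1; DESeq2 0), 0.00123 at 30 min, 1.66e-05 at 60 min and 1.63e-06 at 120 min (22.3-fold, 11.5 to 49.8). ERRFI1 had 0 and 0.220% at 0 min, 0.529% and 0.253% at 15 min, 1.02% and 1.36% at 30 min, 2.13% and 2.16% at 60 min and 2.25% and 2.11% at 120 min. It was called at 30 min (adjusted p = 0.0419, lost with DESeq2, at 0.116 without 0 min replicate 1, and at 0.0610 with the replicate number as a block), 60 min (0.00351) and 120 min (0.00357). These were 2 of 2 at each of the 3 times, beside 56.9%, 79.7% and 86.6% of all genes, and the times share the 0 min libraries. EGFR had 0 to 2 edited reads and HBEGF 0 to 1 in any library, too few for the test.

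Relative to the library, ERBB2 was higher at 60 min (log2 1.58, adjusted p = 0.0266, beside 15.9% of all genes) and at 120 min (1.70, 0.0113, beside 18.3%), and both calls were lost without 0 min replicate 1 or either library of the later time (adjusted p 0.0529 to 0.190), that at 60 min also with DESeq2. Both calls reached the minimum of edited reads for the test only through the libraries of the later time. With DDX6-STAMP-ID, C-to-U editing of ERBB2 was 0.377% and 0.768% at 0 min, 0.950% and 1.09% at 15 min, 1.20% and 1.02% at 30 min and 0.880% and 0.696% at 120 min. ERRFI1 was 1.87% and 1.13%, 0.421% and 0.428%, 1.88% and 0.460%, and 1.20% and 1.25% at the same 4 times. edgeR called 0 of 2 at every later time, as did DESeq2, with an unadjusted p under 0.05 for 1, 0 and 0 of the 2 mRNAs at 15, 30 and 120 min, beside 0.0318%, 0.0321% and 0% of all genes in either direction.

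**Figure D4:**
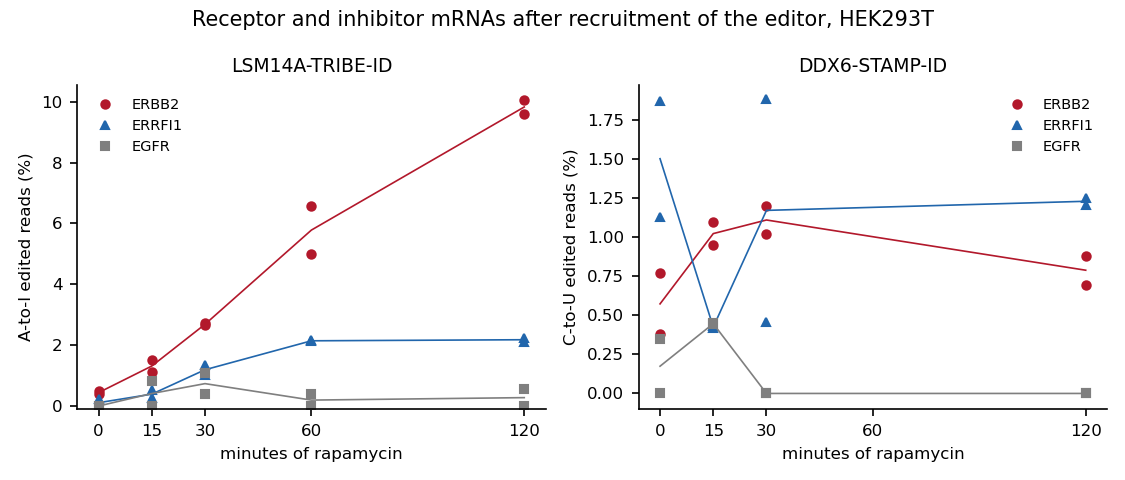
Percentage of reads edited against minutes of rapamycin in HEK293T cells, A-to-I with LSM14A-TRIBE-ID (left) and C-to-U with DDX6-STAMP-ID (right), for ERBB2 (red circles), ERRFI1 (blue triangles) and EGFR (grey squares), 1 point per library with lines through the means. ERBB2 reaches 10.1% and 9.59% at 120 min with LSM14A-TRIBE-ID and stays between 0.377% and 1.20% with DDX6-STAMP-ID.

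RNA levels of the same mRNAs, tested on the reads of the editing tables, changed little with LSM14A-ADAR2dd. AREG (261 and 233 RPM, against 197 and 198; log2 0.35), ERBB3 (83.8 and 84.3, against 65.1 and 65.8; 0.40) and ERRFI1 (566 and 526, against 408 and 411; 0.45) were higher, and HBEGF (44.2 and 47.0, against 54.6 and 54.9; -0.22) was lower, beside 14.1% and 12.9% of all genes. The HBEGF call (adjusted p = 0.0424) was lost without either control library or fusion replicate 1 (0.0562 to 0.306) and with DESeq2. With 4E-T-ADAR2dd 5 were higher (AREG 0.42, ERRFI1 0.41, EREG 0.27, ERBB3 0.25 and EGFR 0.24, as log2 fold changes) and 2 lower (ERBB2 -0.44 and TGFA -0.39), beside 31.0% and 31.6% of all genes.

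With both fused editors RNA levels were tested within each set, and differences between the sets were not tested. In HCT116 cells HBEGF (59.1 and 56.9 RPM, against 36.1 and 33.4; log2 0.69), ERBB3 (0.43), ERBB2 (0.10) and AREG (0.08) were higher, and EGFR (69.2 and 71.8, against 114 and 112; -0.73), EREG (102 and 104, against 158 and 162; -0.69) and ERRFI1 (-0.07) were lower, beside 37.6% and 38.1% of all genes. The replicates of these groups agreed in their reads within counting noise, so that such small differences pass; ERBB2 was lost without unfused replicate 1 (adjusted p = 0.0781), AREG without unfused replicate 2 (0.238), and ERRFI1 without replicate 1 of either group (0.116 to 0.126), and DESeq2 called none of these 3. In the "illumina" set EREG (3.45 and 2.31 RPM, against 165 and 160; -5.84), AREG (31.0 and 32.5, against 257 and 247; -3.03), EGFR (53.6 and 53.3, against 138 and 139; -1.41), TGFA (-0.22) and ERRFI1 (-0.15) were lower and ERBB2 (0.17) higher, beside 33.9% and 33.0%. In HEK293T cells ERBB3 (27.0 and 26.9, against 10.4 and 11.2; 1.25), HBEGF (0.86), EGFR (59.67 and 59.96, against 34.9 and 37.0; 0.66) and TGFA (0.56) were higher, beside 33.5% of all genes; TGFA was lost without unfused replicate 1 (adjusted p = 0.180) and with DESeq2.

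Before induction the HCT116 lines already differed in several of these mRNAs. Per length, AREG and ERRFI1 were the most abundant of the 8 in every line, and HBEGF (12.8 to 23.5 TPM) and ERBB3 (16.5 to 25.7 TPM) were among the least abundant. Set against uninduced APOBEC1-control by limma on log2(TPM + 1), the uninduced APOBEC1-DDX6 line had 5 lower and 2 higher, beside 20.2% and 23.6% of all genes. EREG had 199.2, 208.8 and 206.7 TPM, against 350.4, 304.4 and 314.2 (log2 -0.65, SE 0.05, adjusted p = 9.19e-06). AREG had 436, 451 and 445 against 746, 749 and 745 (-0.75, adjusted p = 3.58e-09), EGFR 17.9, 18.9 and 17.9 against 46.4, 47.8 and 46.3 (-1.32, 1.22e-08), and ERRFI1 364, 370 and 368 against 849, 856 and 863 (-1.22, 1.31e-10). None of these groups overlapped. ERBB2 had 40.0, 37.5 and 41.6 TPM against 37.6, 41.0 and 39.7, and overlapped.

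HBEGF (17.9, 17.2 and 16.1 TPM, against 12.8, 13.1 and 12.9; log2 0.37) and ERBB3 (23.6, 25.7 and 25.5, against 20.2, 22.4 and 22.2; 0.20) were higher and TGFA (52.3, 51.3 and 55.5, against 55.5, 57.2 and 57.6; -0.10) lower in uninduced APOBEC1-DDX6. The ERBB3 call was lost without APOBEC1-DDX6 replicate 2 or 3 (adjusted p 0.0559 to 0.0580), and the TGFA call (adjusted p = 0.0340) without any 1 of 6 libraries (0.0502 to 0.115). In the uninduced ADAR2dd-control line AREG (1067 and 1089 TPM; log2 0.53), HBEGF (0.77) and TGFA (0.21) were higher and EGFR (25.8 and 26.5; -0.82), ERBB3 (-0.31), EREG (282.2 and 274.2; -0.21) and ERRFI1 (-0.19) lower, beside 39.2% and 21.2% of all genes; EREG was lost without ADAR2dd-control replicate 2 (adjusted p = 0.0547). In the uninduced line with both unfused editors AREG (1434 and 1441 TPM; 0.94), HBEGF (0.44), TGFA (0.42) and ERRFI1 (1116 and 1129; 0.39) were higher and EREG (162.6 and 154.9; -1.02) and EGFR (-0.21) lower, beside 39.6% and 17.1%. The lines share the APOBEC1-control libraries. Lines that carry unfused editors thus differed among themselves in EREG, AREG and EGFR, and no group of this set is a line without an editor.

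Of the ligands and the receptor outside the 8 genes, BTC (betacellulin) had 4.63 to 7.58 TPM over these lines with a median of 5.49, NRG2 1.01 to 2.67 with a median of 1.74, and EGF itself 0.303 to 1.19 with a median of 0.693. ERBB4, the fourth receptor, had a median of 0.0126 TPM.

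Translation efficiency, how much an mRNA is translated for its level, is deposited by the authors as 1 log2 value per gene and genotype with no error, so these values have no test. DDX6 is the helicase fused to APOBEC1 above. The table holds no RNA level by which the knockout label could be checked; the value of DDX6 itself was -0.18 in KO and -1.71 in WT HCT116 cells. In HCT116 cells EREG was at -1.41 in KO cells and -2.28 in WT cells, and EGFR at -0.90 in KO cells and -1.92 in WT cells. In both genotypes the 2 mRNAs stood near the bottom of the genes also listed in the dual-editor table. The percentiles of EREG and EGFR were 0.645 and 1.91 in WT cells and 0.765 and 4.35 in KO cells. AREG was at 1.23 in KO cells and 0.11 in WT cells and TGFA at 0.76 in KO and -0.33 in WT cells. HBEGF was at 0.89 in KO and -0.12 in WT cells, ERRFI1 at 0.43 in KO and -0.48 in WT cells, ERBB3 at 0.13 in KO and -0.40 in WT cells, and ERBB2 at 0.59 in KO and 0.49 in WT cells.

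The median difference (KO minus WT) was 0.30 over the 11628 genes with both values that are also listed in the dual-editor table of HCT116 cells, and 0.16 over all 20041 HCT116 genes with both values. Shares of genes below are of the listed genes, and the differences of the mRNAs less the median of 0.30 were 0.83 for AREG, 0.79 for TGFA, 0.72 for EGFR, 0.71 for HBEGF, 0.61 for ERRFI1, 0.57 for EREG, 0.23 for ERBB3 and -0.19 for ERBB2. Before that subtraction 7 of 8 were higher in KO cells by at least 0.5, beside 32.9% of the listed genes, ERBB2 being the one that was not, and 4 of 8 by at least 1, beside 7.17%. All 4 ligands were among the 7. In HEK293T cells none of the 6 listed mRNAs changed by 0.5, where 8.17% of the 11171 listed genes were higher and 2.19% lower by that much: TGFA differed by 0.20, ERRFI1 by -0.03, HBEGF by -0.09, EGFR by -0.18, ERBB3 by -0.30 and ERBB2 by -0.35, with a median of 0.08 over the listed genes and 0.02 over all 25362 HEK293T genes with both values.

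**Figure D5:**
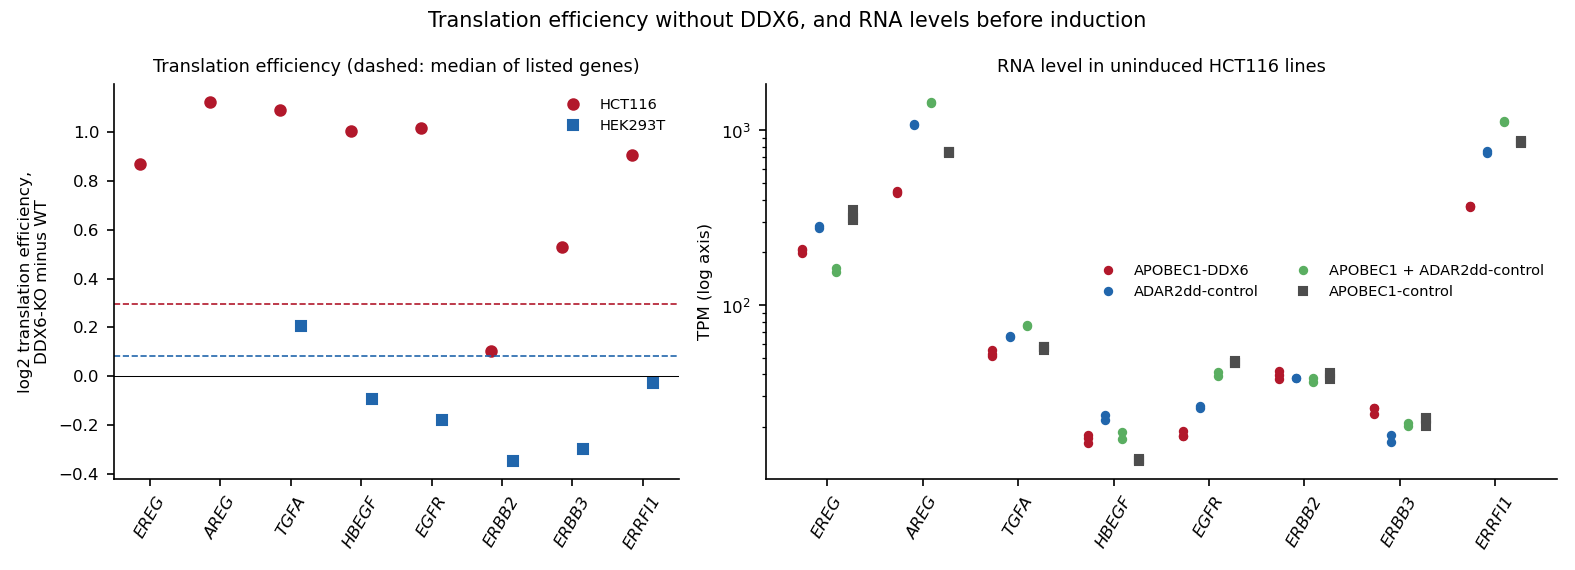
Left, difference in log2 translation efficiency (DDX6-KO minus WT) for each mRNA in HCT116 (red circles) and HEK293T cells (blue squares), 1 deposited value each, with the median of the listed genes dashed. Right, TPM on a log axis in uninduced HCT116 lines, 1 point per library. The HCT116 values lie at 0.87 for EREG, 1.12 for AREG and 0.10 for ERBB2, and EGFR is lowest in TPM in the APOBEC1-DDX6 line (17.9 to 18.9).

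Other genes of the pathway, from lists of sheddases and their partners, adaptors, the kinase cascade, feedback inhibitors and transcriptional targets, were also widely edited by LSM14A-ADAR2dd. A-to-I editing was higher for 5 of 5 tested sheddases (6 listed), 14 of 14 adaptors (16), 20 of 20 kinase cascade genes (21), 8 of 9 feedback inhibitors (12) and 7 of 8 transcriptional targets (10), beside 93.1%. The 7 other ligands and ERBB4 had too few reads for the test.

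Relative to the library, 2 sheddases, 3 adaptors, 4 kinase cascade genes and 2 targets were higher and 1 adaptor, 1 kinase cascade gene and 1 target lower, and no feedback inhibitor was either, beside 12.6% and 10.8% of all genes. GRB2, an adaptor that carries the signal from the receptors to the kinase cascade, was among the higher (8.92% ± 0.636, SD, n = 2, against 0 in both control libraries; adjusted p = 3.50e-05), as was CCND1, which encodes cyclin D1 (6.54% ± 0.630, against 0; adjusted p = 8.50e-06). Both reached the minimum of edited reads for the test only through the fusion libraries, and they were named as the 2 largest rises. These 2 calls are therefore a description and support nothing by themselves. JUN, a target of the cascade, was lower (0.660% ± 0.312, against 0.393% ± 0.336; log2 -3.66, adjusted p = 0.0259), as was SOS2, an exchange factor that GRB2 recruits (5.81% ± 0.464, against 1.30% ± 0.386; -2.23, 0.00192). JUN and SOS2 were named as the 2 largest falls. In HCT116 cells with both editors, A-to-I editing was higher for 5 of 5, 16 of 16, 20 of 20, 9 of 10 and 8 of 9 of the 5 lists in the same order, beside 94.8% of all genes. C-to-U editing was higher for 2 of 4, 9 of 13, 12 of 14, 4 of 8 and 3 of 6, beside 50.6%.

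In translation efficiency in HCT116 cells, 7 of 11 feedback inhibitors and 6 of 10 transcriptional targets were higher in KO than in WT cells by at least 0.5, with median differences of 0.79 and 0.64, against 7 of 20 kinase cascade genes and 5 of 16 adaptors (median 0.26 for both lists) and 2 of 5 sheddases (0.36), beside 32.9% and a median of 0.30 for the listed genes. DUSP6, a phosphatase that shuts off ERK, had the largest of these differences (1.60) and MYC one of 1.29, while HRAS (-0.16) and ETV4 (-0.12) had the lowest. In HEK293T cells 0 of 10 feedback inhibitors (median -0.02), 0 of 6 targets (-0.07), 0 of 5 sheddases (-0.28), 2 of 20 kinase cascade genes (0.06) and 5 of 16 adaptors (0.22) were higher by that much, beside 8.17%. The values ran from -0.45 for RHBDF1 and -0.40 for FURIN to 0.70 for PTPN11.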

How the data were processed

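The 8 genes, the pathway lists and the tests were chosen with earlier results of these data known. The tools named, per the submitters' processing notes, are STAR 2.7.9a, featureCounts 2.0.1, cutadapt 1.18 and FastQC 0.11.9, and the build is hg38; which step made which file is not given in the sources used here. The editing tables hold, as deposited, read counts per gene, counts of edited reads and a score, the fraction edited; the RNA table holds TPM, and the translation table holds log2 values, all per the file headers, with how translation efficiency was computed and how edits were called not given in the sources used here. Scores equalled edited over all reads within 4.98e-06 percentage points, and the scores printed were recomputed as percentages. Columns were mapped to samples by name, and 0 were left unmapped; CNOT10-APOBEC1 and CNOT1-R-APOBEC1 were mapped by column name because their tables are attached to each other's samples.

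Edited counts were tested with edgeR 4.0.16 (quasi-likelihood, offset the log of the gene's reads) under R 4.3.3 over all genes that reached 20 reads in each library and 10 edited reads in sum, in 32 comparisons, at an adjusted p (Benjamini-Hochberg over all genes) under 0.05; relative editing added the log of the library's edited share to the offset. RNA levels used edgeR on reads, and TPM used limma 3.58.1 on log2(TPM + 1) over genes with a mean of at least 1 TPM. DESeq2 1.42.0 was an alternative. Ratios carry exact 95% counting intervals. Each test was checked on simulated data, in which the changed genes were ones with many reads or edited reads. Recovery of changed genes with few edited control reads was not checked. Genes were named by rule: the 8 genes throughout, the 2 other genes most like each in editing, and from the pathway lists the 2 largest passing rises and falls in relative editing and in translation efficiency; 1 gene that this rule names is not reported here. Values and intervals were computed in Python 3.11.15 (scipy 1.17.1, pandas 2.3.3, numpy 2.4.6) and drawn with matplotlib 3.10.9. Coordinates come from RefSeq GRCh38.p14, where all 8 genes matched. Samples of other experiments in the series were not used here.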

Additional observations from a re-analysis of the deposited data

Results flagged for a closer look

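The log2 fold changes in RNA level of 4 mRNAs, fused over unfused editor pair, had opposite signs in 2 sets of libraries, each library of one set lying on one side of its control and each of the other set on the other; the differences between the sets were not tested. The share of all genes with such opposite signs was not counted. Calls in RNA level were frequent, at 37.6% of all genes higher and 38.1% lower in HCT116 cells with both editors. AREG had -3.03 in the "illumina" HCT116 set and 0.0809 in the other HCT116 set (adjusted p = 0.0127 by edgeR, not called by DESeq2). TGFA had -0.22 in the "illumina" set and 0.0016 in the other HCT116 set, which did not pass (adjusted p = 0.974), so the latter sign gives no direction. EGFR had 0.66 in HEK293T cells and -0.73 in HCT116 cells. ERRFI1 had 0.15 in HEK293T cells, which did not pass (adjusted p = 0.0784), and -0.0711 in HCT116 cells (adjusted p = 0.0198 by edgeR, not called by DESeq2). No group held the 4 to 10 libraries needed to look for single libraries that stand apart.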

How the results depend on the processing

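Over the families of comparisons the counts of calls were 28 of 56 for the ADAR2dd fusions, 3 for the APOBEC1 fusions, 26 for both editors, 6 for the rapamycin times, 25 relative to the library, 0 for the difference between lines, 28 for RNA level and 20 for uninduced TPM. With DESeq2 the APOBEC1 count was 1, the relative count 12 and the count for the difference between lines 1; ERBB2 with APOBEC1-4E-T and EREG with ADAR2dd-LSM14A got no adjusted p from DESeq2, and the other counts stayed within 1.5 times (23, 21, 5 and 23). A minimum of 50 reads or none left the editing counts at 28, 26 and 6, and the filter and pseudocount alternatives gave 19 and 20 for uninduced TPM. Leaving out 1 library gave 25 to 28, 1 to 3, 21 to 27, 5 to 6, 15 to 27, 0 to 1, 26 to 29 and 18 to 20, in the order above. The only change of sign was in a log2 difference between lines (ERRFI1, dual A-to-I, HEK293T minus HCT116), which ranged over -6.06 to 0.99 with 1 library left out, the last without HEK293T unfused replicate 2; its HCT116 control has 0 edited reads, so the fitted size depends on the prior count. A cut of 4-fold left 2 of 12 single-library ratios, and a cut of 1 left 4 of 7 translation efficiency differences. The cause of these changes was not tested. With the replicate number as a block the counts were 27, 3, 25, 5, 20, 28 and 20, the difference between lines being left out. The 3 APOBEC1 calls then held ERRFI1 with 4E-T-APOBEC1 (adjusted p = 0.0127) and no longer ERBB2 with APOBEC1-4E-T (0.121). Same-numbered libraries did not deviate together in editing (correlations -0.037 to 0.028 in pairs of 2 groups, -0.003 to 0.024 in 6 pairs of DDX6-STAMP-ID times), so the numbers are not taken to pair libraries. In 10 pairs of LSM14A-TRIBE-ID times the correlations were 0.034 to 0.127 in editing and 0.722 to 0.767 in reads; there the block ended the ERRFI1 call at 30 min (adjusted p = 0.0610). Counts over all genes moved by more than 1.5 times under an alternative 51 times, such as 2556 with edgeR and 1487 with DESeq2 for DDX6-ADAR2dd. Poly(A) tail alternatives gave no value, since the tables list none of the 8 genes. AREG had enough edited reads for the test in 1 of the 10 ADAR2dd comparisons.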

Other observations

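Over the 29 HCT116 groups with a single editor, the genes whose editing level ran most like each mRNA (Spearman's rho of pooled levels, over 9101 genes listed in all groups) were DNAJC3 (0.923) and OSMR (0.907) for TGFA, DCTN2 (0.785) and CCN1 (0.781) for HBEGF, and REEP1 (0.834) and KCTD14 (0.830) for EGFR. For ERBB2 they were PALM (0.921) and HSPG2 (0.914), for ERBB3 SMIM10L1 (0.760) and BOLA3 (0.715), and for ERRFI1 MOB4 (0.829) and FAM199X (0.828). EREG and AREG are listed in 26 of these groups and were not ranked. The groups share control libraries and the level of editing of each library, and no test was made.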
